A study of Mus musculus with 12 samples.

Results

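The BCL-2 family holds the proteins that decide, at the outer mitochondrial membrane, whether a cell survives or dies by apoptosis. Its transcripts were followed through CD4+ T cells of C57BL/6J mice, with and without the transcription factor Bach2. The set has 9 genes, taken by symbol from the 23700 loci of the expression files. They are the survival genes Bcl2, Bcl2l1 (BCL-XL), Mcl1 and Bcl2a1d (A1), the pore-forming effector genes Bax and Bak1, and the BH3-only genes Bcl2l11 (BIM), Bbc3 (PUMA) and Pmaip1 (NOXA). Each symbol matched 1 locus, and all 9 lay above the filter of 0.5 FPKM (fragments scaled to transcript length and library size) in every library. Bach2 binding was read from a deposited list of 22494 peaks, with those within 50 kb of each locus assigned to it.

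RNA sequencing gave 10 libraries. Sorted CD44-CD25-CD62L+ naive wild type cells, freshly isolated from spleen and lymph nodes, gave 1 library. Wild type cells of the same sort, cultured for 3 days with anti-CD3 and anti-CD28 on the plate, each at 10 μg/ml, gave 1 library each for Th1 (20 ng/ml IL-12 with anti-IL-4), Th2 (20 ng/ml IL-4 with anti-IFN-γ) and Th17 (20 ng/ml IL-6, 2 ng/ml TGF-β1 and both neutralizing antibodies) conditions. The iTreg condition, TGF-β1 at 5 ng/ml and IL-2 at 100 IU/ml for 3 days on the same 10 μg/ml of plate-bound anti-CD3 and anti-CD28, gave 3 wild type (WT) and 3 Bach2KO libraries. By their labels these 6 libraries differ in genotype alone, while naive cells differ from all cultures by stimulation as well. The ChIP library and its input came from WT iTreg cells. The labels give neither the age of the mice nor the deleted part of Bach2, nor whether libraries are separate animals or cultures, so p-values measure only the spread between these libraries.

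In healthy cells the survival proteins hold BAX and BAK in check and bind BH3-only proteins. When BH3-only proteins are in excess they occupy the survival proteins and activate BAX and BAK, whose pores release cytochrome c and start the caspases. In T cells IL-7 and IL-2 signals maintain BCL-2 and MCL-1, antigen receptor and costimulatory signals raise BCL-XL and A1, and BIM removes activated cells when cytokine runs out. Bach2 is a transcriptional repressor that pairs with small Maf proteins on DNA elements built around an AP-1-like core. That core was searched here as TGANTCA (N is any base, and the motif reads the same on both strands), and its longer Maf form as TGC directly before that core, searched on both strands, so that every longer match is also a match of the core.

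The targeted gene was at 17.9, 17.7 and 17.2 FPKM in the WT iTreg libraries and at 3.91, 3.39 and 4.12 in the Bach2KO libraries, a difference of −2.08 on the log2(FPKM + 0.5) scale (SE 0.0743, limma adjusted p = 4.4e-06). Lineage genes went with the labels in the helper libraries, with Tbx21 at 35.5 FPKM in Th1, Gata3 at 102 in Th2 and Il17a at 145 in Th17. In the iTreg condition Th1 and Th2 genes also differed by genotype. The Th1 genes Tbx21 and Ifng ran from 0.0412 to 0.148 and from 0 to 0.0615 FPKM in WT, and from 9.18 to 14.7 and from 3.99 to 22.8 in Bach2KO. The Th2 genes Gata3 and Il4 ran from 8.75 to 9.77 and from 0 to 0.0810 in WT, and from 14.1 to 19.1 and from 6.70 to 14.4 in Bach2KO, and all 4 rose (limma adjusted p from 6.9e-06 to 9.4e-04). Foxp3, which defines regulatory T cells, was at 66.7 to 81.1 FPKM in WT and at 5.81 to 19.7 in Bach2KO libraries of the iTreg condition. The 5 CD4 T cell markers summed to between 1388 and 1417 FPKM in WT iTreg, between 1052 and 1212 in Bach2KO iTreg and between 1132 and 1293 in the single libraries, and 3 of them fell in Bach2KO (Cd3e by 0.53, Cd3d by 0.45 and Lck by 0.55 on the log2 scale). The 8 B cell markers summed to 65.4, 11.6 and 36.6 FPKM in WT iTreg replicates 1, 2 and 3, to between 13.3 and 20.2 in Bach2KO and to at most 3.41 in the single libraries. Of 7 tested B cell markers limma called 0 higher (also 0 at an unadjusted p of 0.05) and 2 lower. Cd79b had the higher mean in Bach2KO, 8.97 FPKM against 5.50 in WT, and was not called. Beside these counts and that of the CD4 T cell markers, 41.0% of all loci tested were higher and 33.6% lower. None of the 8 B cell markers was listed at 0 in an iTreg library. The 9 myeloid and dendritic markers summed to at most 5.37 FPKM in any library. The 2 tested went opposite ways, Itgam from 3.70 ± 0.602 to 0.143 ± 0.0398 FPKM and Zbtb46 from 0.235 ± 0.130 to 3.00 ± 0.539 (SD, n = 3 each, limma adjusted p = 1.2e-05 and 7.8e-05). The 5 CD8 and NK markers summed to between 4.58 and 5.53 FPKM in WT iTreg and between 11.3 and 12.3 in Bach2KO. Cd8a rose from 0.0925 ± 0.0107 to 2.23 ± 0.124 FPKM and Cd8b1 from 4.91 ± 0.496 to 9.19 ± 0.490 (SD, n = 3 each; limma adjusted p = 6.5e-06 and 2.0e-04), while the NK cell genes Klrb1c, Ncr1 and Klrk1 reached at most 0.615 FPKM in any library. The part of these lineage and marker differences in the members' results was not tested. Summed FPKM ran from 432450 to 437849 in WT and from 545183 to 553892 in Bach2KO iTreg libraries. Members rested on between 41 reads (Bcl2a1d, naive) and 19841 reads (Mcl1, naive), as implied by the deposited confidence intervals.

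Within the iTreg condition, 6 of the 9 genes rose in Bach2KO cells, 1 fell, and 2 did not pass the test. Across all 11473 loci tested 74.7% were called, 41.0% higher and 33.6% lower, so a large share of the transcriptome differed between the genotypes. The median difference was 0.58 over the 9 genes and 0.07 over all loci. Bcl2l1, Bak1 and Bcl2 rose most, Mcl1 fell, and the BH3-only genes Bcl2l11 and Bbc3 were the 2 without a call. For 8 of the 9 genes no WT value overlapped the Bach2KO values, against 79.4% of all loci. The direction of smaller differences depends on how libraries are put on 1 scale. When libraries were scaled to equal sums of the loci that span 300 bp or more (equal sums from here on), the median of all loci went from 0.07 to −0.19 and the share of calls that were higher from 55.0% to 37.5%. It was 43.2% under quantile normalization, with a median of −0.09. In bulk libraries fewer cells of a type and less RNA per cell cannot be told apart.

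**Figure D1:**
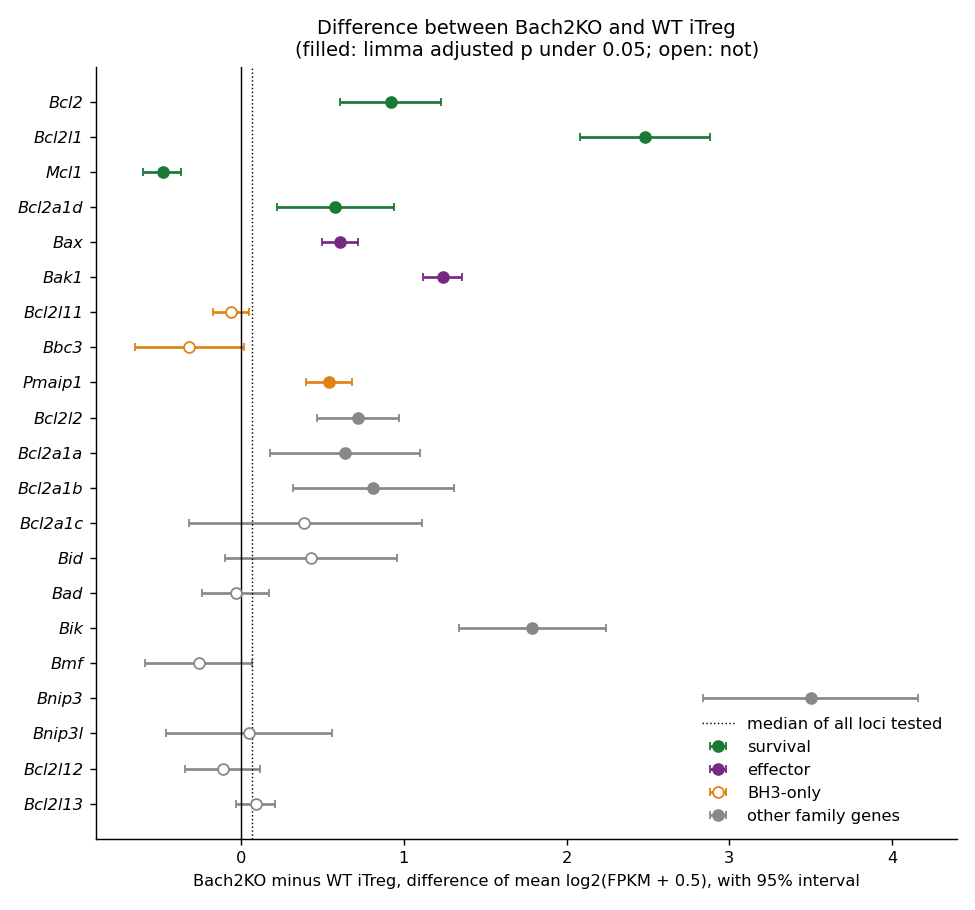
Difference between Bach2KO and WT iTreg libraries (x axis, mean log2(FPKM + 0.5) of 3 Bach2KO minus that of 3 WT libraries, bars the 95% interval of the limma fit) for the 9 genes and the 12 other BCL-2 family genes tested. Filled points passed a limma adjusted p of 0.05, with Bcl2l1 at 2.48 and Bnip3 at 3.50 farthest to the right and Mcl1, at −0.48, the only filled point to the left of 0.

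Among the survival genes, Bcl2l1, which encodes BCL-XL, differed most between the genotypes. It was at 9.60, 9.24 and 12.8 FPKM in the WT iTreg libraries and at 62.6, 69.8 and 50.4 in the Bach2KO libraries. All Bach2KO values lay above all WT values. In deposited FPKM they also lay above the 47.3 FPKM of the Th2 library, the highest of the single libraries. Summed FPKM was 472069 in the Th2 library and at least 545183 in the Bach2KO libraries, and this order was not examined under another scaling. The means were 10.5 ± 1.94 and 60.9 ± 9.84 FPKM (SD, n = 3 each), a difference of 2.48 (SE 0.164, limma adjusted p = 3.8e-05). Naive cells had 4.69 FPKM, Th17 cells 13.4 and Th1 cells 21.7. The gene was thus lowest in naive cells and 13.0 times higher in the condition with the most.

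Bcl2, the founding survival gene of the family, was at 26.7, 21.7 and 29.9 FPKM in WT and at 49.2, 53.6 and 45.6 in Bach2KO iTreg libraries. The difference was 0.92 (SE 0.126, limma adjusted p = 8.2e-04), with no overlap. The Bach2KO mean, 49.5 ± 4.03 FPKM (SD, n = 3), was near the 45.6 of the Th1 library, which lay at the lowest Bach2KO library. Th2 cells had 78.2 FPKM and naive cells 21.1, while Th17 cells had 6.95, so the range over conditions was 11.3-fold. In deposited FPKM Th17 was the only one of the cultures below naive cells for this gene.

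Mcl1, whose short-lived product is needed by T cells at every stage, was the most abundant of the 4 survival transcripts in every library and the only member that fell. It was at 144, 141 and 135 FPKM in WT and at 105, 97.1 and 98.1 in Bach2KO iTreg libraries, a difference of −0.48 (SE 0.0466, limma adjusted p = 1.8e-04) with no overlap. It was −0.76 under both other scalings. Naive cells had 176 FPKM, Th17 cells 147, Th2 cells 109.8 and Th1 cells 97.0. The Bach2KO mean of 100.0 ± 4.11 FPKM (SD, n = 3) overlapped the Th1 library, and all cultures stood below naive cells. The range over conditions, 1.81-fold, was the narrowest of the 9 genes.

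Bcl2a1d, one of the mouse A1 genes, was at 13.4, 10.4 and 14.6 FPKM in WT and at 20.0, 21.3 and 16.7 in Bach2KO iTreg libraries. The difference of 0.58 (SE 0.147) passed the test (limma adjusted p = 0.0117) but not with equal sums (0.32, limma adjusted p = 0.0837). Th17 cells had 40.2 FPKM, Th1 cells 12.7, Th2 cells 6.16 and naive cells 2.07, a 19.5-fold range that was the widest of the 9 genes. Its value is uncertain, because 84.0% of the 50-base windows of its transcripts also occur in Bcl2a1a, Bcl2a1b, Bcl2a1c or Mthfs, and only uniquely mapped reads were used. The copies moved with it: Bcl2a1a rose by 0.64 (limma adjusted p = 0.0209) and Bcl2a1b by 0.81 (limma adjusted p = 0.0109), while Bcl2a1c was at 0.39 and not called. Bcl2a1a was not called with equal sums (0.38, limma adjusted p = 0.101), nor without Bach2KO replicate 1 or 2 (limma adjusted p = 0.0632 and 0.0562).

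The B cell marker sum was uneven over the WT libraries, and WT replicate 2, where it was lowest, also had the lowest WT values of Bcl2, Bcl2l1 and Bcl2a1d. Against that library alone the differences of these 3 genes had to be larger, because it held their lowest WT values. Without WT replicates 1 and 3 they came to 1.17 for Bcl2, 2.64 for Bcl2l1 and 0.86 for Bcl2a1d, while Mcl1 was at −0.50. The part of the B cell marker differences in these results was not tested.

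**Figure D2:**
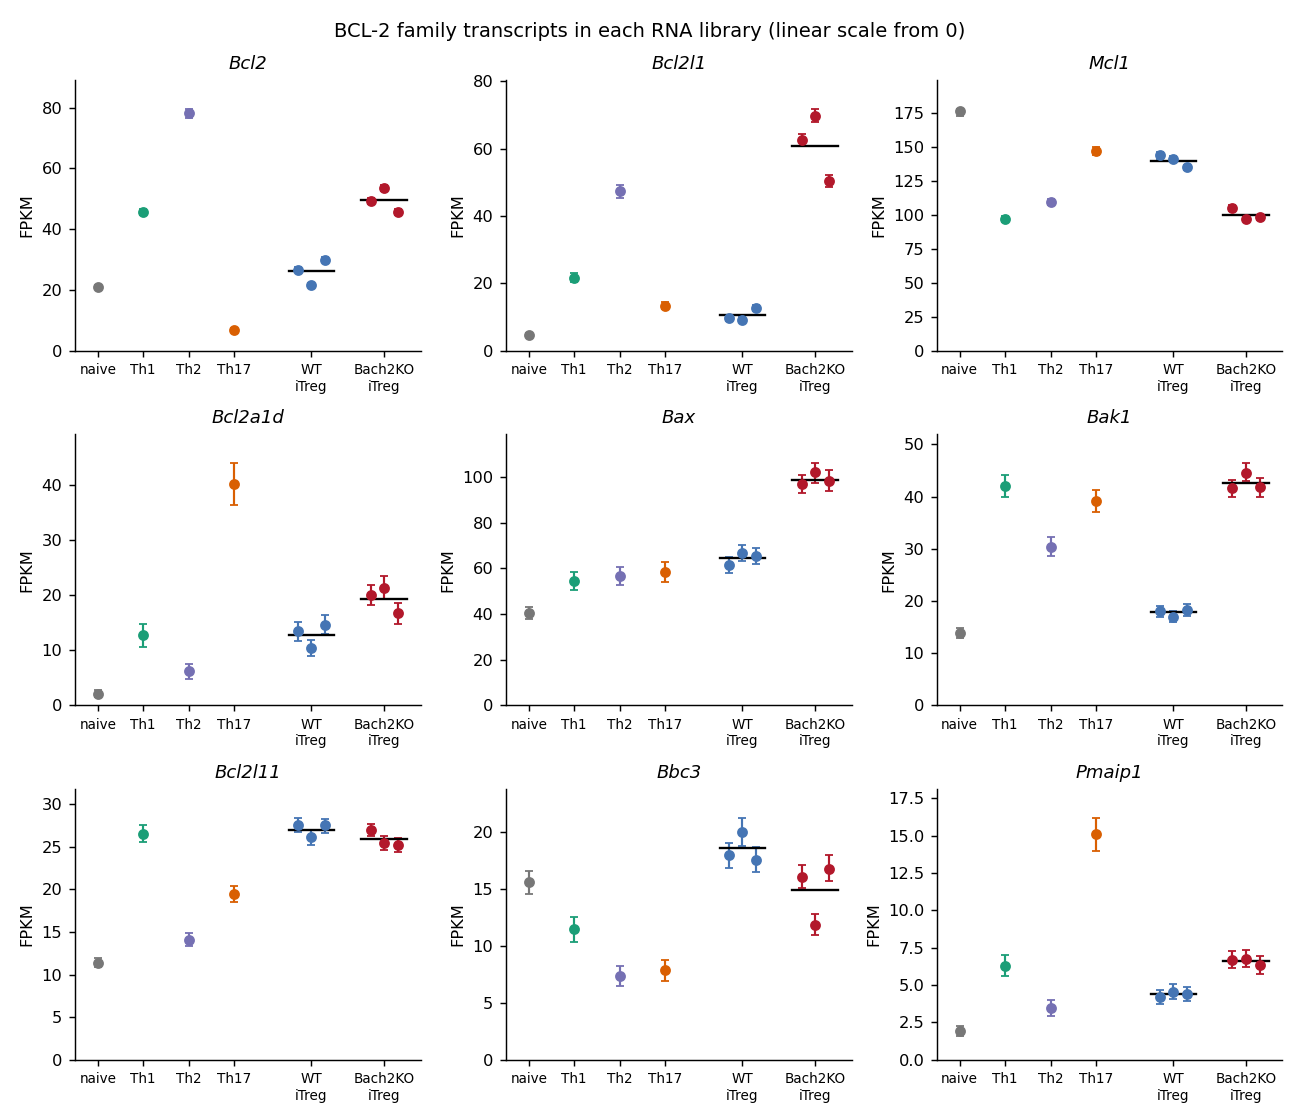
FPKM of each gene (y axis, linear from 0) in the 10 RNA libraries, with the deposited confidence interval of each value as a bar and the mean of the 3 iTreg libraries of a genotype as a black line. The Bach2KO points of Bcl2l1 lie between 50.4 and 69.8 FPKM and the WT points between 9.24 and 12.8. For Bcl2l11 the ranges overlap, with Bach2KO points between 25.2 and 27.0 and WT points between 26.1 and 27.6.

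The make-up of the survival transcripts differed between the genotypes. Summed FPKM of the 4 genes was 193, 182 and 192 in WT and 236, 242 and 211 in Bach2KO iTreg libraries. Mcl1 made up 74.3, 77.3 and 70.2% of that sum in WT and 44.3, 40.1 and 46.6% in Bach2KO. Bcl2l1 went from 4.97, 5.07 and 6.63% to 26.5, 28.9 and 23.9%, and Bcl2 from 13.8, 11.9 and 15.5% to 20.8, 22.2 and 21.6%. The shares of these 3 genes did not overlap between genotypes, and as ratios within a library they do not depend on a linear scaling of libraries. Among the single libraries the Mcl1 share was 86.3% in naive, 70.8% in Th17, 54.8% in Th1 and 45.5% in Th2 cells. The Th2 library, with 19.6% Bcl2l1 and 32.4% Bcl2, was the one of the 4 whose Mcl1 share lay within the Bach2KO range. In Th17 cells Bcl2a1d made up 19.4% and Bcl2 only 3.35%.

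**Figure D3:**
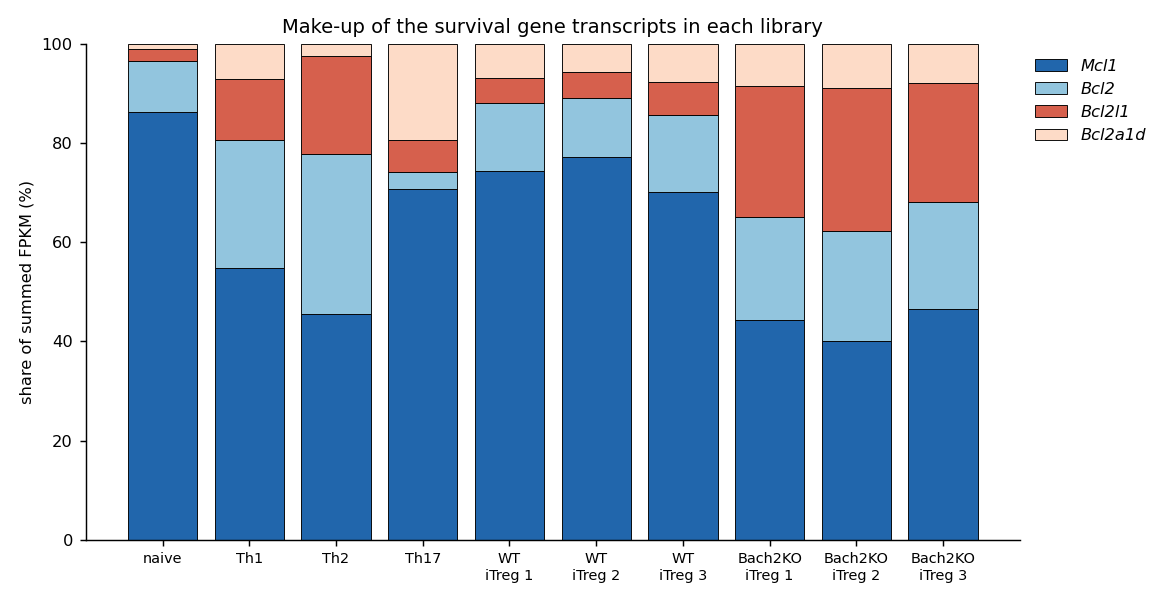
Share of each survival gene in the summed FPKM of Mcl1, Bcl2, Bcl2l1 and Bcl2a1d (y axis, percent) in each of the 10 libraries. Mcl1 fills 70.2 to 77.3% of the bar in WT iTreg and 40.1 to 46.6% in Bach2KO iTreg libraries, where Bcl2l1 fills 23.9 to 28.9%.

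Bach2 peaks lay within 50 kb of 8 of the 9 genes, where 64.5% of all loci and 84.5% of the loci tested in iTreg cells had at least 1. Within 10 kb it was 7 of the 9, without Bak1, beside 40.3% and 58.8%. Peak scores are the authors' values, 10 times the −log10 of the MACS p-value, from 1 ChIP library, so they carry no replicate error. The motif TGANTCA lay within 100 bp of the summit in 23 of the 55 peaks of these genes (41.8%) and in 43.1% of all peaks, and the Maf form in 4 (7.27%) and in 10.4%. Windows of 50 kb often hold other genes, so a peak is given by its place and not as belonging to a gene.

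Bcl2 spans 176 kb on chromosome 1 (mm9, 108434756 to 108610867, minus strand) and had 22 peaks, 19 of them in the locus. Only 0.0675% of loci had as many, while long loci have wider windows. Per 100 kb of window it had 7.97 peaks, against 4.64 for Bcl2l1, 4.79 for Mcl1 and 5.70 for Bax. Bcl2l15, another gene of the family, had 8.20. The density over all loci was not computed. The peak with the highest score (386.19) lay in a coding exon, 1.75 kb past the start, and most others were intronic. Bcl2l1 (chromosome 2, 152606404 to 152657418, minus strand) had 7 peaks, the strongest of which (score 643.34, 188 tags) was over annotated exon sequence 1.14 kb past the gene start. Of all peaks, 7.29% scored as high. Mcl1 (chromosome 3, 95462643 to 95467101, plus strand) had 5 peaks, none in the locus. Its strongest peak (score 373.76, 102 tags) was intergenic, 5.54 kb past the start and nearest to Mcl1. Bcl2a1d had 0 peaks. Neither the strongest Bcl2 peak nor the strongest Bcl2l1 peak held the core motif within 100 bp of the summit. It was held by 4 of the 22 Bcl2 peaks, 3 of the 7 Bcl2l1 peaks and 3 of the 5 Mcl1 peaks. For Mcl1 and Bcl2l1 the peak of highest score with that motif is shown, with the match in capitals. That of Mcl1 is its strongest peak. That of Bcl2l1 is intergenic, beyond the 3′ end of the gene, 90.1 kb past its start and nearer to Id1. Both are plus-strand mm9 sequence, chr3:95468110-95468210 and chr2:152567244-152567344.
Mcl1 peak: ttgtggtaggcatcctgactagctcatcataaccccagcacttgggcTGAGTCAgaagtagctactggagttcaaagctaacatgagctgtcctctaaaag
Bcl2l1 peak: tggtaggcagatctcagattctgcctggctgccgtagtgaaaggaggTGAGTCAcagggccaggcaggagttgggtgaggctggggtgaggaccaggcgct
Both windows hold TGAGTCA, at 27 and 2 bp from the summit, and neither holds the longer Maf form.

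**Figure D4:**
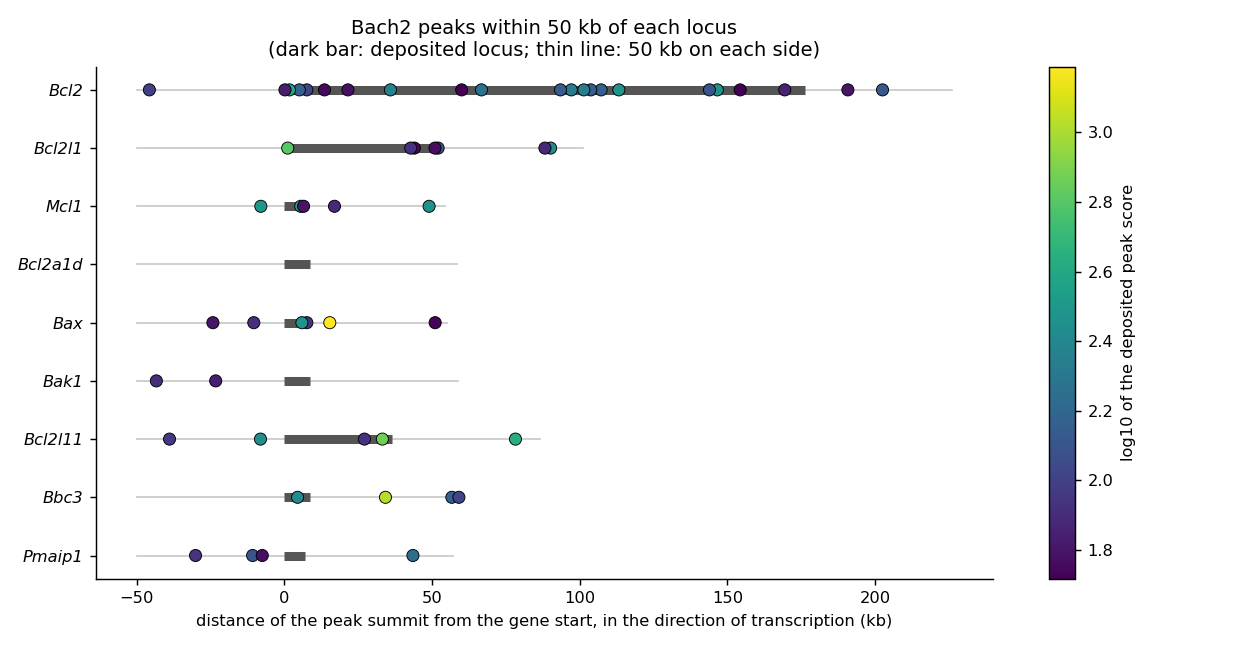
Position of each Bach2 peak summit relative to the start of the gene (x axis, kb in the direction of transcription), coloured by log10 of the deposited score, with the locus as a dark bar and the 50 kb on each side as a thin line. Bcl2 has 22 peaks spread over its locus, Bcl2a1d has 0, and the highest score, 1546.55, lies 15.4 kb past the start of Bax.

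Both effector genes rose. Bak1 was at 18.0, 17.0 and 18.3 FPKM in WT and at 41.6, 44.6 and 41.8 in Bach2KO iTreg libraries. That difference, 1.24 (SE 0.0484, limma adjusted p = 5.7e-06), had no overlap. Th1 (42.1 FPKM) and Th17 (39.1) libraries stood near the Bach2KO mean, which overlapped the Th1 library, while Th2 had 30.4 and naive 13.9. For Bak1 the WT iTreg libraries were therefore the cultures nearest to naive cells. Of the 50-base windows of Bak1 transcripts 5.10% are shared with the overlapping gene Ggnbp1.

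Bax was at 61.4, 66.7 and 65.3 FPKM in WT and at 96.8, 102 and 98.2 in Bach2KO iTreg libraries, a difference of 0.61 (SE 0.0456, limma adjusted p = 6.0e-05). It was 0.34 with equal sums and 0.35 with quantile normalization, and kept its call in both (limma adjusted p = 7.6e-04 and 6.7e-04). The other cultures lay close together, at 54.3 FPKM in Th1, 56.7 in Th2 and 58.4 in Th17, and their intervals overlapped. Naive cells had 40.5 FPKM. In deposited FPKM the Bach2KO libraries were thus above every other library for Bax. Bax and Bak1 together gave 79.3, 83.7 and 83.6 FPKM in WT and 138, 146 and 140.0 in Bach2KO. The ratio of the survival sum to this effector sum was 2.43, 2.18 and 2.30 in WT and 1.71, 1.65 and 1.51 in Bach2KO, with no overlap. It was 3.74 in naive, 2.77 in Th2, 2.12 in Th17 and 1.84 in Th1 cells.

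Bax (chromosome 7, 52717065 to 52722268, minus strand) had 6 peaks in its window and none in its locus. The highest score of any peak near the 9 genes, 1546.55 with 168 tags, lay there, a score reached by 1.46% of all peaks. Its summit was in an exon of Gys1, 15.4 kb past the start of Bax, and the nearest gene start was that of Ftl1, the ferritin light chain gene. Bak1 (chromosome 17, 27156757 to 27165571, minus strand) had 2 peaks with scores of 69.58 and 81.09, both upstream and nearer to the start of Itpr3. Another peak between Ftl1 and Bax (score 291.23), 5.95 kb past the Bax start, held the Maf form, 30 bp from the summit. It is shown because 4 peaks of the set held that form, with the match in capitals, on the plus strand of mm9 at chr7:52716303-52716403.
Bax window peak: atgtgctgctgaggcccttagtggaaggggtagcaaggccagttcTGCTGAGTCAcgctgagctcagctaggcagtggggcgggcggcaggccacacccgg
The nearest gene start to this peak was again that of Ftl1, 1069 bp away.

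The BH3-only genes did not move together. Pmaip1, which encodes the MCL-1 antagonist NOXA, was at 4.18, 4.55 and 4.43 FPKM in WT and at 6.70, 6.77 and 6.34 in Bach2KO iTreg libraries. It rose by 0.54 (SE 0.0573, limma adjusted p = 2.7e-04), and by 0.29 with equal sums (limma adjusted p = 0.00501). Its level in Th17 cells, 15.1 FPKM, was above all other libraries. Th1 cells had 6.29 FPKM, Th2 cells 3.47 and naive cells 1.93. Pmaip1 (chromosome 18, 66618258 to 66625212, plus strand) had 4 intergenic peaks with scores up to 171.88.

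Bcl2l11, which encodes BIM, the main initiator of death in activated and cytokine-deprived T cells, was at 27.6, 26.1 and 27.5 FPKM in WT and at 27.0, 25.4 and 25.2 in Bach2KO iTreg libraries. These values overlapped, and the difference of −0.06 had a 95% interval from −0.17 to 0.05 (limma adjusted p = 0.254). Relative to the rest of the transcriptome the call depends on the scale, at −0.23 with quantile normalization and −0.33 with equal sums (limma adjusted p = 0.00421 and 8.7e-04). Th1 cells had 26.5 FPKM, Th17 cells 19.5, Th2 cells 14.1 and naive cells 11.4. In deposited FPKM all cultures were above naive cells, and the WT iTreg mean, 27.0 ± 0.842 FPKM (SD, n = 3), was the highest, overlapping the Th1 library.

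With Bcl2l11 near one level in deposited FPKM, though called lower under both other scalings, Bcl2l1 and Bcl2 were higher in Bach2KO iTreg libraries. Mcl1, the most abundant survival transcript, went the other way, from a mean of 139.9 FPKM in WT to 100.0 in Bach2KO. The ratio of Bcl2l1 to Bcl2l11 was 0.348, 0.354 and 0.464 in WT and 2.32, 2.75 and 2.00 in Bach2KO iTreg libraries. That of Bcl2 to Bcl2l11 was 0.968, 0.832 and 1.09 in WT and 1.83, 2.11 and 1.81 in Bach2KO. Neither ratio overlapped between the genotypes. In the single libraries Bcl2 over Bcl2l11 ran from 0.357 in Th17 to 5.53 in Th2 cells.

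Bbc3, the p53 target that encodes PUMA, was at 18.0, 20.0 and 17.6 FPKM in WT and at 16.1, 11.9 and 16.8 in Bach2KO iTreg libraries. The values did not overlap, yet the difference of −0.32 (95% interval −0.65 to 0.02) missed the threshold (limma adjusted p = 0.0772). Bach2KO replicate 2 was the lowest, and without it the difference was −0.17. It passed without Bach2KO replicate 3 (−0.41, limma adjusted p = 0.0427), with quantile normalization (−0.45, limma adjusted p = 0.0285) and with equal sums (−0.58, limma adjusted p = 0.00990). In deposited FPKM its level was highest in WT iTreg cells. Naive cells (15.6 FPKM), which overlapped the Bach2KO libraries, came next, and then Th1 (11.5), Th17 (7.86) and Th2 (7.41) cells. Th17 and Th2 did not differ beyond their intervals.

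Bcl2l11 (chromosome 2, 127951774 to 127988283, plus strand) had 5, with the highest score (745.93, 229 tags) over untranslated exon sequence 33.2 kb past its start. Bbc3 (chromosome 7, 16894932 to 16903683, plus strand) had 4. Its strongest (score 1055.06, 149 tags) lay in an intron of Sae1, 34.2 kb past the Bbc3 start, a score reached by 3.25% of all peaks, and 1 lay in an intron of Bbc3 itself, 4.47 kb past its start. The Maf form was found at 2 peaks of Bcl2l11 and at the intronic peak of Bbc3. These 3 windows and the strongest Bbc3 window, which holds the core alone, are shown with matches in capitals. They are plus-strand mm9 sequence from chr2:127943605-127943705, which lies in an Acoxl intron 8.07 kb upstream of Bcl2l11, chr2:128029931-128030031, chr7:16899398-16899498 and chr7:16929165-16929265 in turn.
Bcl2l11 upstream peak: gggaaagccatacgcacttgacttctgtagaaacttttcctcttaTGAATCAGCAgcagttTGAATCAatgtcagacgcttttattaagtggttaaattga
Bcl2l11 downstream peak: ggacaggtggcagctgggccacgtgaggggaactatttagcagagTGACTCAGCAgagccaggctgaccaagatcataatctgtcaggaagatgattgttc
Bbc3 intron peak: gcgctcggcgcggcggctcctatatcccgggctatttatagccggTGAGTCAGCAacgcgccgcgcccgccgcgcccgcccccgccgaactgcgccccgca
Bbc3 strongest peak: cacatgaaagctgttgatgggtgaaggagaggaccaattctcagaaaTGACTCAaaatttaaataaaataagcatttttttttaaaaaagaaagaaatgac
Both Bcl2l11 windows and the Bbc3 intron window carry the Maf form in its reverse orientation, and the upstream Bcl2l11 window has a further core match. Within 50 kb of the loci, the genes that rose had 22 peaks (Bcl2), 7 (Bcl2l1), 6 (Bax), 4 (Pmaip1), 2 (Bak1) and 0 (Bcl2a1d). Mcl1, which fell, had 5, and Bcl2l11 and Bbc3, which were not called, had 5 and 4. Of all loci tested 41.0% rose. The order of the genes depends on the window. Within 50 kb of the gene start Bcl2 had 8 peaks, Mcl1 and Bax 5 each, Bcl2l11 and Pmaip1 4 each and Bcl2l1 3.

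Set against naive cells, the cultures differed in which members stood at least 2-fold apart on the log2(FPKM + 0.5) scale. These comparisons share the single naive library, whose summed FPKM was the lowest, and have no test. The counts are for deposited FPKM and depend on the scaling. In Th1 cells 6 members stood apart, but 4 with quantile normalization and 5 with equal sums. In Th1 cells 6 of the 9 were higher and 0 lower, where 29.0% of loci were higher and 9.87% lower. They were Bcl2, Bcl2l1, Bcl2a1d, Bak1, Bcl2l11 and Pmaip1. In Th2 cells 4 were higher (Bcl2, Bcl2l1, Bcl2a1d and Bak1) and Bbc3 was lower, beside 27.5% and 11.8% of loci. In Th17 cells 4 were higher (Bcl2l1, Bcl2a1d, Bak1 and Pmaip1) and Bcl2 was lower, at −1.53, beside 24.4% and 7.53% of loci. WT iTreg cells had 2 members at least 2-fold higher in all 3 libraries, Bcl2a1d and Bcl2l11, and 0 lower, beside 14.3% and 3.08% of loci. Bcl2l1 (0.91 to 1.35 above naive) and Pmaip1 (0.95 to 1.06) passed in some WT iTreg libraries and not in others. Bcl2a1d was the only member past 2-fold in all 4 culture conditions, and Mcl1 and Bax passed in none of them.

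Of 17 other genes of the family 12 reached the filter, and their median difference was 0.41. There were 5 that rose, 0 that fell (also 0 at an unadjusted limma p of 0.05) and 7 without a call, beside 41.0% of all loci higher and 33.6% lower. Bcl2l10, Bok, Hrk, Bcl2l14 and Bcl2l15 were not tested. Beside the A1 copies, those that rose were Bcl2l2, Bik and Bnip3. Bcl2l2, which encodes the survival protein BCL-W, was at 3.40, 3.39 and 3.38 FPKM in WT and 6.31, 4.99 and 6.50 in Bach2KO, a rise of 0.72 (limma adjusted p = 9.9e-04). Bik, a BH3-only gene, rose by 1.79 (limma adjusted p = 2.3e-04) from 0.915 ± 0.235 to 4.40 ± 0.915 FPKM (SD, n = 3 each). Bnip3, a hypoxia-responsive gene of mitophagy, was at 4.85, 5.57 and 4.47 FPKM in WT and at 64.2, 40.5 and 87.0 in Bach2KO, a rise of 3.50 (SE 0.270, limma adjusted p = 7.1e-05). In the single libraries Bnip3 went from 1.37 FPKM in naive to 70.6 in Th17, 119.8 in Th1 and 183 in Th2 cells. Its close relative Bnip3l, at 41.9 ± 1.29 and 44.5 ± 13.0 FPKM (SD, n = 3 each), was not called (0.05, limma adjusted p = 0.852). Bid was at 0.43, Bad at −0.03, Bmf at −0.26, Bcl2l12 at −0.11 and Bcl2l13 at 0.09, none of them called. With equal sums Bad, Bmf, Bcl2l12 and Bcl2l13 passed with lower values in Bach2KO, at −0.29, −0.43, −0.37 and −0.17 (limma adjusted p from 0.0106 to 0.0290). With quantile normalization Bmf and Bcl2l12 also passed with lower values, at −0.45 and −0.25 (limma adjusted p = 0.0198 and 0.0292).

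Genes that act after the mitochondrion were read from the same fit. Of 18 apoptosome, caspase and inhibitor genes 10 rose and 4 fell, with a median of 0.25, beside 41.0% of all loci higher and 33.6% lower. Cycs, which encodes cytochrome c, rose from 5.12 ± 0.554 to 16.5 ± 1.88 FPKM (SD, n = 3 each), a difference of 1.59 (limma adjusted p = 4.5e-05). Birc5 (survivin), which also serves cell division, rose by 3.80, and the mitochondrial protease gene Htra2 by 0.69. Of the 4 that fell, Casp9, the apoptosome's own caspase, was at −0.72 and Dffb, the nuclease that cuts DNA in dying cells, at −0.55. With equal sums 8 of the 18 fell, and without WT replicates 1 and 3 it was 1.

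In the death receptor list 6 of 10 genes rose and 1 fell, with a median of 0.42, against the same shares of all loci (41.0% higher, 33.6% lower). Fas rose by 0.59, its signalling partner Ripk1 by 0.45 and the death ligand gene Tnfsf10 (TRAIL) by 1.26, while Cflar, which encodes the caspase-8 inhibitor FLIP, fell by 0.52. With equal sums or quantile normalization 3 of the 10 fell, and without Bach2KO replicate 2 it was 2.

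Regulators upstream of the family were examined in the same way. Of 12 genes of cytokine survival signalling 9 rose and 2 fell, where 41.0% of all loci were higher and 33.6% lower, with the highest median of these lists, 0.90. The 2 that fell became 1 on leaving out WT replicate 1, 2 or 3, or replicates 1 and 3 together. The IL-2 receptor chain gene Il2rb rose by 1.75, and the STAT5 targets Cish, Pim1 and Pim2 by 2.78, 2.32 and 2.28. Jak1 was among those that fell, at −1.09. Of 14 p53, FOXO and stress regulators 7 rose and 5 fell (median 0.18), near those shares of all loci. The p53 target Cdkn1a went from 2.65, 5.00 and 3.25 FPKM in WT to 81.6, 74.1 and 85.0 in Bach2KO (4.33, SE 0.203, limma adjusted p = 1.1e-05), and Phlda3, Sesn2 and Atf4 rose by 1.70, 2.02 and 1.31. Trp53 itself was at 0.40, and Foxo1 and Ddit3 were lower, at −0.84 and −0.77. Of 4 genes that control the turnover of MCL-1 and BIM, the ubiquitin ligase genes Huwe1 and Btrc fell by 0.40 and 0.42, Fbxw7 was not called, and the deubiquitinase gene Usp9x rose by 0.19. That rise was not called with quantile normalization (0.06) or without WT replicates 1 and 3, and turned to −0.07 with equal sums.

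Over the 6 conditions, each member was set beside 8690 other genes by Pearson's r of log2(FPKM + 0.5), as a description over 6 points that share libraries. The nearest pair was Tnfsf8 (r = 0.988) and Plxnd1 (0.977) for Bcl2, Ifi30 (0.995) and Rnf19b (0.985) for Bcl2l1, and Setd2 (0.992) and Vezf1 (0.990) for Mcl1. Bcl2a1d was nearest to its copy Bcl2a1a (0.998), with which it shares sequence, and to Rexo2 (0.989). Among the effectors, Bax was nearest to Mrpl40 (0.991) and Rnpep (0.990), and Bak1 to Smyd2 (0.994) and Nudcd2 (0.993). Of the BH3-only genes, Bcl2l11 was nearest to Atp6v0b (0.987) and Arf3 (0.985), Bbc3 to Rbfa (0.994) and Ifi205 (0.986), and Pmaip1 to Atxn10 and Chst2 (0.989 each).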

How the data were processed

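FPKM values were made by the authors from unique 50-bp reads mapped to mm9 with TopHat and Cufflinks, per the labels' protocols; their versions are not stated there. Deposited FPKM were used as scaled by the authors. Peaks were called with MACS 1.4.0beta at a p-value cutoff of 1e-05 from 8992019 ChIP and 9999999 input tags, per the file headers. Each peak has a tag count, a score of 10 times −log10 of the p-value, a fold enrichment (a ratio) and an FDR in percent, per the file headers. The list holds peaks with a score of at least 50.0.

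Members, lists and tests were chosen with earlier results of these data known. The 3 Bach2KO and 3 WT iTreg libraries entered a two-sided limma fit (version 3.58.1, R 4.3.3; eBayes with a mean-variance trend) on log2(FPKM + 0.5), over 11473 loci with a mean of at least 0.5 FPKM in the 6 libraries. Benjamini-Hochberg adjustment ran over all of them, with 0.05 as the threshold. Differences on this scale understate changes of low genes. Depth is known only as reads implied by the deposited intervals, which cover counting error only. Named genes were the 9 members, all tested family genes, up to 4 called genes per other list by smallest adjusted p, and the 2 genes most like each member with at least 5 FPKM in a condition. The lineage and marker genes given singly, and Casp9, Dffb, Jak1, Trp53, Foxo1, Ddit3 and Fbxw7 were named after their values were seen, and 2 genes the rule would name are not reported here. Gene models came from GENCODE of the same build. Alternatives were another pseudocount, filter, scaling, variance model or peak rule, the replicate number as a block, and each library left out. Peak windows over exons are not shown.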

Additional observations from a re-analysis of the deposited data

How the results depend on the processing

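The 9 members' differences between genotypes were recomputed under 16 alternatives each, 144 values in all. Of these, 138 kept their direction and their side of the threshold, 5 gained a call and 1 lost it, and 0 turned in direction. The 6 changes concern Bcl2a1d, Bcl2l11 and Bbc3 and are given with those genes. Members with lower values numbered 1, and 3 under quantile normalization and with equal sums of loci spanning 300 bp or more. On leaving out 1 library they numbered from 1 to 2. Other family genes called went from 5 to 8 with equal sums and to 7 under quantile normalization. Members of WT iTreg at least 2-fold from naive went from 2 to 1 under quantile normalization and with equal sums. Under these 2 scalings in turn, those of Th1 went from 6 to 4 and 5. Those of Th2 went from 5 to 4 under both, and those of Th17 were 5 and 6 beside 5. With a pseudocount of 1 Th2 had 4, and with 0.1 WT iTreg had 3. Among genes not called, Bad ran from −0.09 to 0.03 with 1 library left out (above 0 without WT replicate 2 or Bach2KO replicate 2). Bnip3l ran from −0.15 (without Bach2KO replicate 3) to 0.28 and was −0.16 with quantile normalization and −0.22 with equal sums, and Bcl2l13 to −0.02 and −0.17 under the scalings. Usp9x turned to −0.07 with equal sums. The cause was not tested. Peaks summed over the members were 55, with 35 within 10 kb, 85 within 100 kb, 31 at a score of at least 100 and 33 by distance to the gene start. The members with a peak numbered 7 within 10 kb and at the higher score, and 8 otherwise.

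The labels do not say whether the replicate numbers pair the libraries. Deviations of same-numbered WT and Bach2KO libraries correlated at −0.04, −0.04 and 0.01, which cannot decide how the libraries were prepared. With the replicate number as a block, 7 members were called, 6 higher and 1 lower, other family genes called went from 5 to 4 (Bcl2a1a lost its call at 0.64, limma adjusted p = 0.0580), cytokine survival genes that fell from 2 to 1, and 7886 loci were called in place of 8566. Leaving out WT replicates 1 and 3 was chosen after seeing the data. It left 1 WT library, so its calls take the spread of that library to be like that of the Bach2KO libraries. With 1 library per single condition and 1 ChIP library, those values have no replicate error.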
